A study of Homo sapiens with 6 samples.

Results

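The genes examined here encode the proteins that join, divide and fold mitochondria. They were listed by name and by role as fusion genes (MFN1, MFN2 and OPA1), fission genes (DNM1L, FIS1, MFF and MIEF1) and genes of cristae organization (IMMT, CHCHD3 and PHB2). The choice was by role and not by a measured value, but it was made with earlier results of these data known. Of these 10 genes, 9 were analysed among the 19330 genes of the count table, and FIS1 was not analysed here. Mitochondria form a network that is reshaped by dynamin-family GTPases. MFN1 and MFN2 are the mitofusins that join the outer membranes, and OPA1 joins the inner membranes and keeps cristae junctions narrow. DNM1L, also called DRP1, is recruited from the cytosol by adaptors such as MFF and MIEF1 to constrict the organelle, whereas the MICOS complex and the prohibitin scaffold organize the infoldings of the inner membrane that hold the respiratory chain.

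K562, a long-established line from a human chronic myelogenous leukemia, was profiled by RNA-Seq after lentiviral delivery of pLentiCRISPRv2, which carries Cas9 and an sgRNA. The control condition, sgCtrl, received sgRNAs against olfactory receptor genes such as OR11A1, and the depleted condition, sgN6AMT1, received sgRNAs against N6AMT1, a methyltransferase that modifies the translation termination factor eRF1. Each condition has 3 libraries from separate lentiviral infections, and every culture was selected with puromycin for 48 h from 48 h after infection and collected on day 10, in medium with 25 mM glucose and 1 mM pyruvate. The cells are selected populations and not clones, so a library averages cells with different edits, and which sgRNA each library carries is not given in the sources used here. Because the RNA is bulk, a lower share of expressing cells and less RNA per cell cannot be told apart.

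The sgCtrl libraries held 742470 to 866894 counts and the sgN6AMT1 libraries 959319 to 5526904, so that 2 of the 6, sgN6AMT1 replicates 2 and 3, were sequenced several times deeper than the rest. N6AMT1 itself had 6, 5 and 9 counts in sgCtrl and 0, 18 and 16 counts in sgN6AMT1. This corresponds to 8.08 ± 2.32 against 2.40 ± 2.11 cpm (the count scaled to a library of fixed size, SD, n = 3), and the smallest two-sided p that an exact permutation test can give with 3 libraries per condition was reached (p = 0.1). All 12 erythroid leukemia markers checked, such as GATA1 and the fetal globins, had counts in every library. Their summed level was 11800 to 18700 cpm in sgCtrl and 19000 to 34300 cpm in sgN6AMT1. Of 8 markers of other cell types, 4 were at 0 in all 6 libraries, and the sum of the 8 did not exceed 10.3 cpm in any library. The 13 open reading frames encoded by mt-DNA took 3.21 to 5.26% of the counts in sgCtrl and 0.461 to 1.92% in sgN6AMT1. Whether the marker levels, the depth or the mt-DNA-encoded share had a part in the differences given below was not tested.

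The question asked here is whether transcripts for mitochondrial fusion, fission and cristae organization changed when N6AMT1 was depleted. Levels are given as TMM-normalized cpm, which scales each library by its total and by a trimmed mean of its gene ratios. A gene was called when its adjusted p in edgeR's quasi-likelihood test, by Benjamini-Hochberg over the 8324 genes that passed a filter on low counts, was under 0.05. All 9 genes passed that filter and none was called, whereas 820 of all genes tested (9.85%) were called, of which 424 (5.09%) were higher and 396 lower in sgN6AMT1. DESeq2 also called 0 of the 9, against 6.54% of the genes it tested. At an unadjusted p under 0.05 in the edgeR test there was 1 of the 9, OPA1, against 26.2% of all genes. The levels of sgCtrl and sgN6AMT1 did not overlap for 2 of the 9, OPA1 and MFF, against 29.2% of all genes. Fold changes were positive for 6 of the 9 genes and negative for 3, and their median on the log2 scale was 0.04, against 0.0087 over all genes tested. The plot of levels by library shows the OPA1 and MFF libraries standing apart by condition and those of the other 7 genes overlapping.

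**Figure D1:**
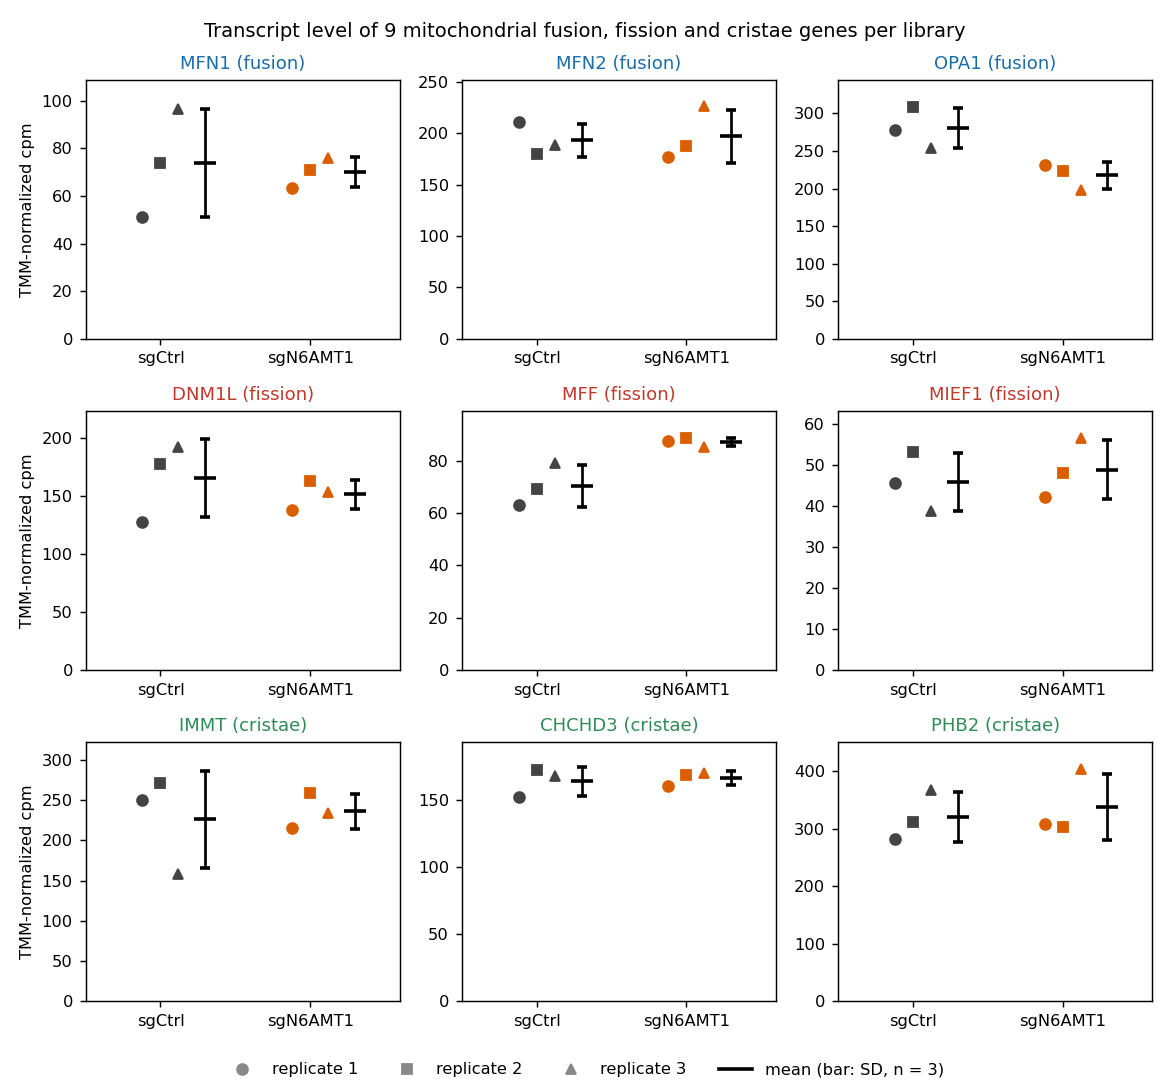
TMM-normalized cpm (vertical axes, linear from 0) of each of the 9 genes in the 3 sgCtrl and 3 sgN6AMT1 libraries; symbols mark replicate numbers and black bars the mean ± SD (n = 3). OPA1 lay at 255 to 308 cpm in sgCtrl and at 198 to 232 cpm in sgN6AMT1, and MFF at 63.2 to 79.0 and at 85.4 to 88.5 cpm, while the other 7 genes overlap between the conditions.

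Of the fusion genes, OPA1 had the largest difference of the 9 genes. OPA1 (ENSG00000198836.11, chr3:193593144-193697811, plus strand, GRCh38) encodes the dynamin-like GTPase of the inner membrane, and its canonical transcript has 31 exons and 6.43 kb. Its level was 278, 308 and 255 cpm in sgCtrl and 232, 223 and 198 cpm in sgN6AMT1, so each depleted library was below each control library. The means were 280 ± 26.8 and 217 ± 17.5 cpm (SD, n = 3), a ratio of 0.773. On the log2 scale the difference was -0.37 (SE 0.15, 95% interval -0.68 to -0.06), with an edgeR unadjusted p of 0.0206 and an adjusted p of 0.115. The adjusted p stayed between 0.0798 and 0.371 over 16 other ways of processing the counts. OPA1-AS1, a noncoding RNA on the opposite strand, shares 208 exonic bases with OPA1, and whether strand was used in counting is not given in the sources used here.

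MFN2 (ENSG00000116688.18, chr1:11980181-12015211, plus strand), the mitofusin that also tethers mitochondria to the endoplasmic reticulum, was measured at 211, 180 and 189 cpm in sgCtrl and at 177, 187 and 226 cpm in sgN6AMT1. The depleted libraries span the control range, and the log2 fold change was 0.04 (95% interval -0.29 to 0.36, edgeR adjusted p = 0.913). MFN1 (ENSG00000171109.19, chr3:179347709-179394936, plus strand), the mitofusin with the stronger GTPase and tethering activity, was measured at 51.1, 73.8 and 96.7 cpm in sgCtrl and at 63.2, 71.0 and 75.8 cpm in sgN6AMT1. All 3 depleted libraries lie inside the control range, which is the widest of the 9 genes in relative terms (SD 30.9% of the mean). The log2 fold change of MFN1 was -0.07 (95% interval -0.52 to 0.38, edgeR adjusted p = 0.877).

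Among the fission genes, MFF had the largest difference. MFF (ENSG00000168958.21, chr2:227325151-227357833, plus strand) encodes the tail-anchored outer membrane receptor that recruits DNM1L. It was measured at 63.2, 69.2 and 79.0 cpm in sgCtrl and at 87.5, 88.5 and 85.4 cpm in sgN6AMT1, so each depleted library was above each control library. The means were 70.5 ± 7.99 and 87.1 ± 1.61 cpm (SD, n = 3), a ratio of 1.23. The log2 fold change was 0.30 (SE 0.18, 95% interval -0.07 to 0.68) and did not pass the test (edgeR unadjusted p = 0.110, adjusted p = 0.300). The raw counts behind it were 47 to 67 per library in sgCtrl, where counting error alone is up to 14.6% of a value, more than the SD seen between the control libraries (11.3%). The divergent noncoding RNA MFF-DT shares 507 exonic bases with MFF on the opposite strand.

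DNM1L (ENSG00000087470.21, chr12:32679200-32745650, plus strand), the GTPase that constricts the membrane, was measured at 128, 178 and 192 cpm in sgCtrl and at 138, 163 and 154 cpm in sgN6AMT1. The depleted libraries lie inside the control range, and the log2 fold change was -0.12 (95% interval -0.48 to 0.23, edgeR adjusted p = 0.694). MIEF1 (ENSG00000100335.15, chr22:39499432-39518132, plus strand) encodes MiD51, an outer membrane receptor that binds DNM1L independently of MFF. Its levels of 45.7, 53.1 and 38.9 cpm in sgCtrl and 42.1, 48.0 and 56.6 cpm in sgN6AMT1 overlapped, with a log2 fold change of 0.11 (95% interval -0.35 to 0.58, edgeR adjusted p = 0.792). MIURF, which encodes a small protein from the same transcripts, shares 213 exonic bases with MIEF1 on the same strand in GENCODE release 44. Whether MIURF was a separate gene in the annotation used for counting was not checked.

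The log2 fold changes of the 3 cristae genes lay close together, between 0.02 and 0.08. IMMT (ENSG00000132305.22, chr2:86143932-86195472, minus strand) encodes mitofilin, the core subunit of MICOS at cristae junctions. It was measured at 250, 271 and 158 cpm in sgCtrl and at 216, 258 and 234 cpm in sgN6AMT1. One control library, replicate 3, was the lowest of all 6, and the log2 fold change was 0.07 (95% interval -0.30 to 0.44, edgeR adjusted p = 0.851). CHCHD3 (ENSG00000106554.13, chr7:132784870-133082090, minus strand), the MICOS subunit MIC19 that binds IMMT, was measured at 152, 172 and 167 cpm in sgCtrl and at 160, 168 and 170 cpm in sgN6AMT1. CHCHD3 had the fold change closest to 0 of the 9 genes, 0.02 (95% interval -0.29 to 0.34, edgeR adjusted p = 0.942). PHB2 (ENSG00000215021.10, chr12:6965327-6970780, minus strand) encodes prohibitin 2, which forms ring assemblies with PHB1 in the inner membrane. Its levels of 282, 312 and 368 cpm in sgCtrl and 308, 303 and 403 cpm in sgN6AMT1 overlapped, with a log2 fold change of 0.08 (95% interval -0.25 to 0.41, edgeR adjusted p = 0.800). The small RNA SCARNA12 lies within PHB2 and shares 270 exonic bases with it on the same strand. A processed pseudogene shares 172 exonic bases with CHCHD3, also on the same strand. How reads from these shared bases were counted was not checked.

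The 95% intervals give the range of changes that the fit leaves for each gene. Over the 9 genes they ran from -0.68 (OPA1) to 0.68 (MFF) on the log2 scale. Their widths were between 0.615 (OPA1) and 0.929 (MIEF1), the latter being the gene with the fewest counts in the control libraries.

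Levels of different genes were compared per kilobase (kb) of canonical transcript, the order of which is shown in the plot of level per kilobase. In sgCtrl, PHB2 was highest at 232 ± 31.6 cpm per kb (SD, n = 3), followed by CHCHD3 at 102 ± 6.56 and IMMT at 84.2 ± 22.4. The last pair did not differ beyond its spread. MFN2 (43.8 ± 3.63 cpm per kb), OPA1 (43.6 ± 4.16), MFF (36.7 ± 4.16) and DNM1L (36.7 ± 7.5) formed a middle group whose neighbours overlapped. MFN1 at 14.2 ± 4.38 and MIEF1 at 8.07 ± 1.25 cpm per kb were lowest. In sgN6AMT1, MFF (45.3 ± 0.840 cpm per kb) lay with MFN2 (44.7 ± 5.92), and OPA1 (33.8 ± 2.73) lay with DNM1L (33.6 ± 2.80). Among all tested genes with a length, the mean levels per kb ranged from the 30.4th percentile for MIEF1 to the 95.7th for PHB2. The inner membrane scaffold genes were thus the most abundant of the set and the adaptor MIEF1 and the mitofusin MFN1 the least.

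**Figure D2:**
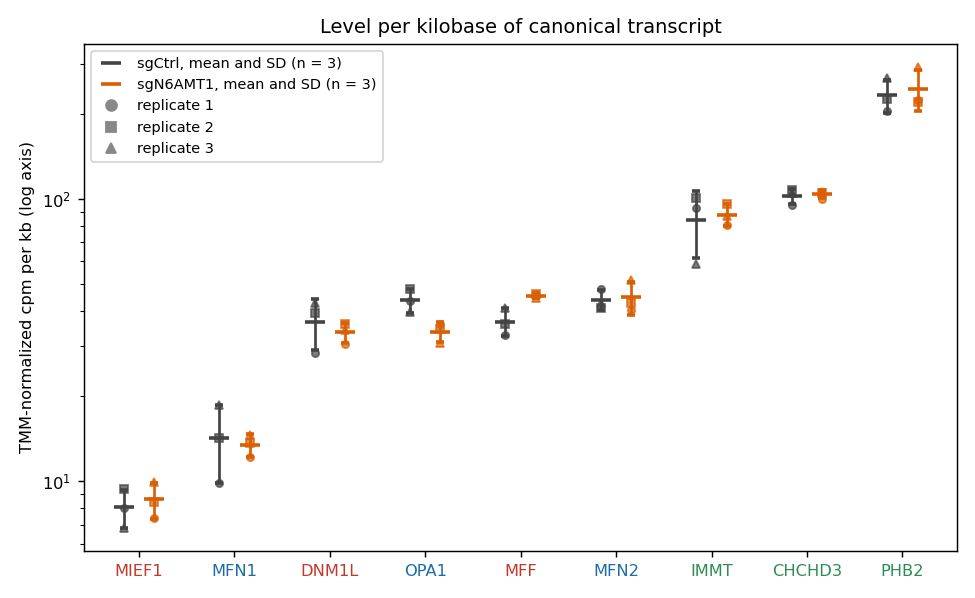
TMM-normalized cpm per kb of canonical transcript (vertical log axis) for the 9 genes, ordered by mean level; symbols are libraries and bars the mean ± SD (n = 3) of each condition. PHB2 is highest (232 and 245 cpm per kb), MIEF1 lowest (8.07 and 8.60), and OPA1 and MFF change places between the conditions (43.6 and 36.7 in sgCtrl, 33.8 and 45.3 in sgN6AMT1).

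Ratios between genes within a library do not depend on how the library is scaled, and are given here as values without a test and without a length correction. The number of MFN2 counts per MFN1 count was 4.13, 2.44 and 1.95 in sgCtrl and 2.80, 2.64 and 2.99 in sgN6AMT1, with the depleted libraries inside the control range. OPA1 to DNM1L, an inner membrane fusion GTPase against the fission GTPase, was 2.18, 1.73 and 1.33 in sgCtrl and 1.68, 1.37 and 1.29 in sgN6AMT1, and the ranges overlapped. MFN2 to OPA1 was 0.758, 0.584 and 0.741 in sgCtrl and 0.764, 0.842 and 1.14 in sgN6AMT1, with the lowest depleted library next to the highest control library. These genes differ in GC content (53.1% and 38.2%), and their log2 fold changes of 0.04 and -0.37 were -0.0092 and -0.18 after the GC and length correction described in the paragraph on GC content. MFF to DNM1L was 0.495, 0.390 and 0.411 in sgCtrl and 0.634, 0.543 and 0.554 in sgN6AMT1, without overlap. The log2 fold changes of MFF and DNM1L were 0.30 and -0.12, and 0.30 and 0.03 after the same correction. Summed over the role, fusion genes had 539.9 to 561.9 cpm in sgCtrl and 472.1 to 500.3 cpm in sgN6AMT1. OPA1 alone made these sums separate, since MFN1 and MFN2 together had 253.8 to 285.3 cpm in sgCtrl and 240.3 to 302.3 cpm in sgN6AMT1, which overlap. The fission sums were 237 to 310 and 268 to 300 cpm, and the cristae sums 684 to 755 and 684 to 807 cpm, both overlapping.

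**Figure D3:**
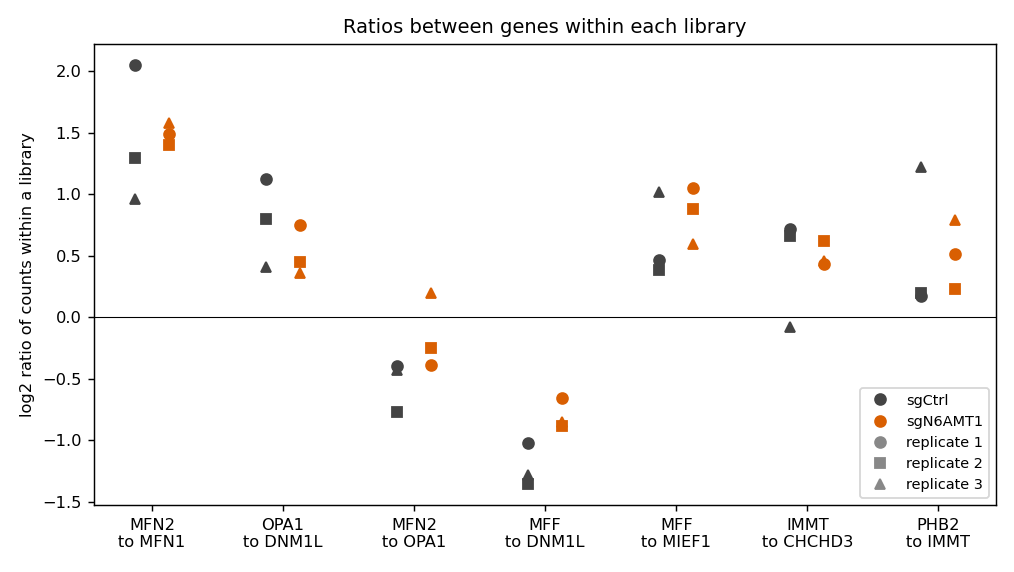
Log2 ratio of raw counts between pairs of genes in each library (vertical axis) for 7 pairs; colours mark the condition and symbols the replicate number. The 3 sgN6AMT1 libraries lie above all sgCtrl libraries for MFN2 to OPA1 and for MFF to DNM1L, and overlap with them for the other 5 pairs. MFN2 to OPA1 and MFF to DNM1L were not planned pairs, and each holds a gene (OPA1 or MFF) whose own levels did not overlap.

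The fold changes followed the GC content of transcripts across the whole table. The nuclear genes with a known GC content were divided into 5 groups of like size. The median log2 fold change rose from -0.14 in the group lowest in GC (30.7 to 40.1%) to 0.19 in the highest (57.5 to 74.4%). OPA1, at 38.2% the most AT-rich of the 9, and MFN1, at 39.9%, belong to the lowest group. After correcting each library for GC content and length, the log2 fold change of OPA1 was -0.18 in place of -0.37 (edgeR adjusted p = 0.371). MFN1 and DNM1L (40.4% GC) changed from -0.07 and -0.12 to 0.10 and 0.03, and PHB2, the richest in GC at 56.1%, from 0.08 to -0.11. MFF, at 43.6% GC, was at 0.30 with and without the correction (edgeR adjusted p = 0.243 with it). None of the 9 genes was called in the corrected fit, in which 903 of 8160 genes were.

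**Figure D4:**
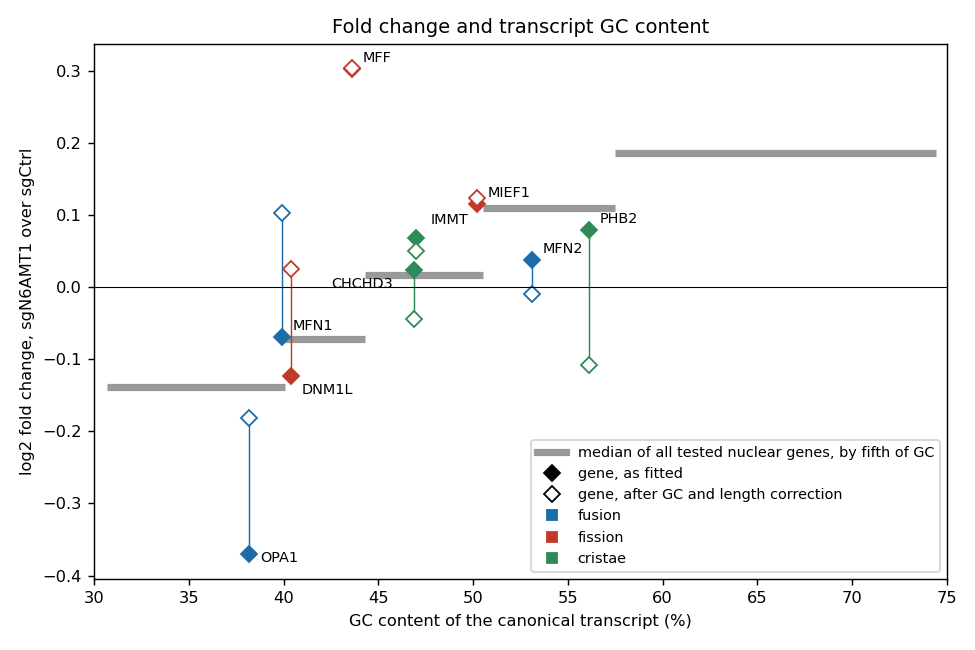
Log2 fold change, sgN6AMT1 over sgCtrl (vertical axis), against the GC content of the canonical transcript in percent (horizontal axis). Filled diamonds are the fitted values of the 9 genes, and open diamonds the values after correction for GC content and length. Grey bars are the median of the tested nuclear genes with a known GC content in each of 5 GC groups. OPA1 moves from -0.37 to -0.18 with the correction while MFF stays at 0.30.

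To place the 9 genes among others of the same processes, 50 further genes were listed by role, of which 45 passed the filter. One of these 45 was called, STOML2, against 9.85% of all genes, and 11 had an unadjusted p under 0.05 (7 higher and 4 lower), against 26.2% of all genes. Their median log2 fold change was 0.06, with 27 positive and 18 negative. The levels of 9 of the 45 did not overlap between conditions, 5 of them higher and 4 lower in sgN6AMT1, against 29.2% of all genes.

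STOML2 encodes a stomatin-like protein of the inner membrane that binds cardiolipin and prohibitins and takes part in stress-induced mitochondrial hyperfusion. It was measured at 185, 165 and 186 cpm in sgCtrl and at 273, 276 and 295 cpm in sgN6AMT1. All 3 depleted libraries were above all control libraries, with means of 179 ± 12.1 and 281 ± 12.2 cpm (SD, n = 3) and a ratio of 1.58. The log2 fold change was 0.66 (SE 0.14, edgeR adjusted p = 0.00955), and 0.49 after the GC and length correction (edgeR adjusted p = 0.0187). The call was lost without sgCtrl replicate 2 (0.59, edgeR adjusted p = 0.0836) and when the deep libraries were thinned to 866524 counts (0.57, adjusted p = 0.150).

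The 9 other fusion genes tested include the regulators of OPA1. YME1L1, the inner membrane protease that cleaves OPA1 constitutively, had a log2 fold change of -0.15 (edgeR adjusted p = 0.556). Besides STOML2, 3 of the 9 had an unadjusted p under 0.05 (OMA1, MARCHF5 and MIGA2), and they are named here after their values were seen. OMA1, which cleaves OPA1 under stress, was measured at 47.0, 50.8 and 44.8 cpm in sgCtrl and at 34.8, 36.0 and 25.5 cpm in sgN6AMT1. The OMA1 libraries did not overlap, but the log2 fold change of -0.58 did not pass the test (SE 0.24, edgeR adjusted p = 0.124), and was -0.24 with the deep libraries thinned (adjusted p = 0.725). MARCHF5, an outer membrane ubiquitin ligase that acts on mitofusins and DNM1L, was measured at 29.6, 38.1 and 18.9 cpm in sgCtrl and at 16.9, 16.6 and 11.8 cpm in sgN6AMT1. These libraries did not overlap either, and the log2 fold change of -0.96 did not pass the test (SE 0.32, edgeR adjusted p = 0.0633). MARCHF5 was called in 4 of the 16 alternatives, among them the replicate block (-0.93, adjusted p = 0.0459) and the fit without sgCtrl replicate 3 (-1.20, adjusted p = 0.0367), and was at -0.60 with thinning (adjusted p = 0.518). MIGA2, an outer membrane protein that promotes fusion, had overlapping libraries and a log2 fold change of 0.91 (SE 0.36, edgeR adjusted p = 0.116), with 0 calls in 15 alternatives. SLC25A46, an outer membrane protein that interacts with the fusion machinery and MICOS, had a log2 fold change of 0.14 (edgeR adjusted p = 0.715).

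Of 10 other fission genes tested, none was called, and 3 had an unadjusted p under 0.05 (2 higher and 1 lower). DNM2, a dynamin better known for endocytosis, was measured at 122, 100 and 156 cpm in sgCtrl and at 170, 164 and 190 cpm in sgN6AMT1. The libraries did not overlap, and the log2 fold change was 0.47 (SE 0.17, edgeR adjusted p = 0.0898). It was called without sgCtrl replicate 3, at 0.65 (edgeR adjusted p = 0.0394). The phosphatase PGAM5 and the SUMO protease SENP5, both of which act on DNM1L, had log2 fold changes of 0.06 and 0.05 (edgeR adjusted p = 0.874 and 0.892).

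Of 15 other cristae genes tested, none was called, and 2 had an unadjusted p under 0.05, PHB1 and ATAD3A. PHB1, the partner of PHB2 in the prohibitin rings, was measured at 304, 302 and 332 cpm in sgCtrl and at 395, 411 and 419 cpm in sgN6AMT1. Its libraries did not overlap, and its log2 fold change was 0.39 (SE 0.14, edgeR adjusted p = 0.0803), and 0.23 after the GC and length correction (adjusted p = 0.210). The number of PHB1 counts per PHB2 count was 1.08, 0.970 and 0.904 in sgCtrl and 1.28, 1.36 and 1.04 in sgN6AMT1, which overlap by 1 library of each condition. ATAD3A, an inner membrane ATPase at contacts with the outer membrane, had 286 ± 14.98 cpm in sgCtrl and 218 ± 26.6 cpm in sgN6AMT1 (SD, n = 3). Its log2 fold change of -0.38 did not pass the test (edgeR adjusted p = 0.104) but did so without sgN6AMT1 replicate 3 (-0.49, adjusted p = 0.0430) and after the GC and length correction, at -0.56 (adjusted p = 0.0120). ATAD3A and ATAD3B are near-identical copies, so the division of reads between them is uncertain. ATAD3B had 234 ± 31.2 cpm in sgCtrl and 228 ± 38.3 cpm in sgN6AMT1 (SD, n = 3). Its log2 fold change was -0.03 (edgeR adjusted p = 0.927), and -0.15 after the GC and length correction (edgeR adjusted p = 0.528). GHITM, which links cristae structure to calcium and proton exchange, was at 0.01 (edgeR adjusted p = 0.982).

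None of the 7 genes of cardiolipin metabolism was called, and 2 had an edgeR unadjusted p under 0.05, both higher in sgN6AMT1. The log2 fold changes of the 7 ran from -0.60 to 0.76. PRELID1, which carries phosphatidic acid to the inner membrane, had 354 ± 36.7 cpm in sgCtrl and 466 ± 42.0 cpm in sgN6AMT1, with a log2 fold change of 0.40 (edgeR adjusted p = 0.0896) that was 0.20 after the GC and length correction (adjusted p = 0.327). Cardiolipin synthase, encoded by CRLS1, was at -0.23 and the phosphatase PTPMT1 at -0.05 (edgeR adjusted p = 0.568 and 0.907). None of the 4 transport genes was called. RHOT1 and RHOT2, the Miro GTPases that attach mitochondria to microtubule motors, were at 0.00 and -0.36 (edgeR adjusted p = 0.989 and 0.258), and the motor adaptor TRAK2 was at 0.18 (adjusted p = 0.680). The plot of fold changes by role shows the 9 genes within the range of the other genes of their roles.

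**Figure D5:**
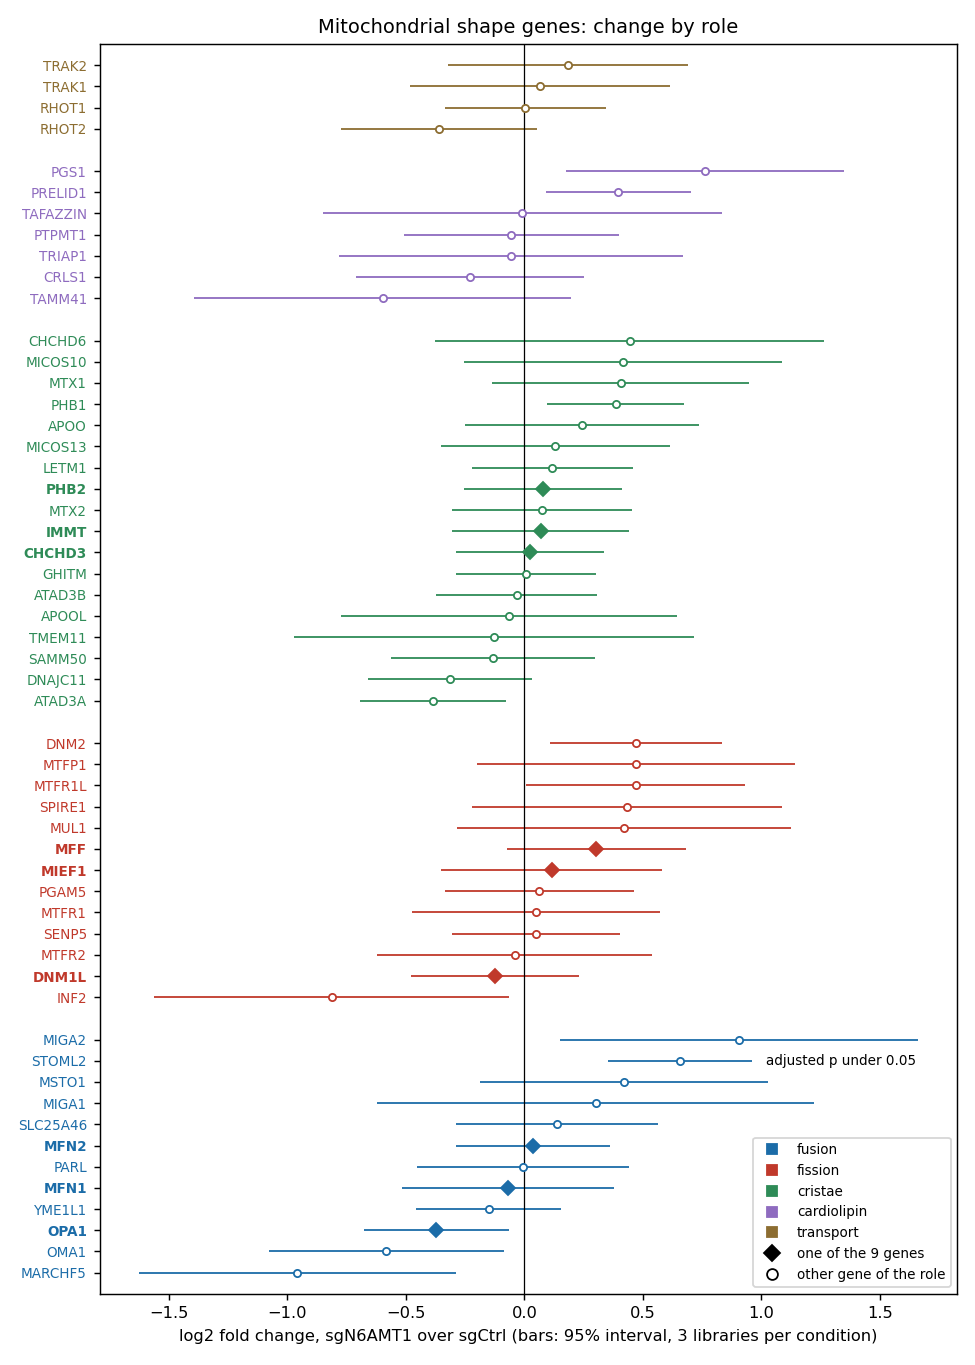
Log2 fold change, sgN6AMT1 over sgCtrl (horizontal axis), of the 9 genes (filled diamonds) and the 45 other tested genes (open circles), grouped by role; bars are 95% intervals (3 libraries per condition). STOML2 is the only gene shown with an adjusted p under 0.05 (log2 fold change 0.66), and of the 9 genes only the interval of OPA1 (-0.68 to -0.06) lies on 1 side of 0.

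The start regions of the 9 genes were examined for known promoter motifs, in windows of 300 bases that RefSeq annotation on GRCh38.p14 places from 250 before to 50 after each start. A motif was searched on both strands and is reported as letters found, not as a binding site. MFF and PHB2 have more than 1 such window, and a gene was counted as holding a motif found in any of its windows. The motif of NRF1, the nuclear respiratory factor that acts on many genes of mitochondrial proteins, was searched as GCGCANGCG and was in the windows of 2 of the 9 genes, OPA1 and IMMT, and in those of 9.02% of all 27305 genes with a window. The stretches that hold it are printed here for both genes. Neither gene was called, and whether the motif had a part in their levels was not tested. The capitals mark the motif, which in OPA1 covers 2 overlapping matches on opposite strands.
OPA1: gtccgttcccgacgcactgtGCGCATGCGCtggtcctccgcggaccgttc
IMMT: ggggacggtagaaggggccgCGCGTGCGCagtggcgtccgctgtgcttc
The OPA1 stretch is chr3:193593094-193593143 on the plus strand, 114 to 65 bases upstream of the RefSeq start. The IMMT stretch is chr2:86195492-86195540 on the minus strand, 78 to 30 bases upstream of its RefSeq start. RefSeq starts can differ from the GENCODE positions given above. The OPA1 stretch ends just before the GENCODE start of OPA1. The windows of MFN2 (11980194-11980493) and MIEF1 (39502040-39502339) lie downstream of their GENCODE starts.

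Of the other motifs, the ETS motif CCGGAAG was in the windows of 4 of the 9 genes (MFN1, MIEF1, IMMT and PHB2) and of 12.2% of all genes. The CCAAT box was in 7 of 9 against 39.7%, and the GC box GGGCGG in 7 of 9 against 48.3%. The E-box CACGTG and the cAMP response element TGACGTCA were found for none of the 9 genes and for 8.77% and 2.25% of all genes. These shares are over all 27305 genes with a window, expressed here or not. They were not computed over the 8324 genes tested, so they are no like background for the 9 genes. The windows of the 9 genes held a median of 64.7% GC and 23 CpG, against 58.3% and 14 over 27305 genes, taking the first window of each gene, and these values describe the windows and were not tested.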

How the data were processed

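RNA-Seq libraries of K562 cells (3 sgCtrl, 3 sgN6AMT1) were grouped by their labels, and replicate numbers are those of the labels. The labels describe a stranded total RNA kit with rRNA depletion but give the molecule as polyA RNA, which bears on the mt-DNA-encoded share and was not resolved here. Per the study's methods, reads were trimmed with cutadapt (minimum length 15, quality cutoff 2), mapped to GRCh38 with HISAT2 (default settings) and assigned to the genes of annotation release 84. The authors deposited raw counts per gene, without normalization. The counter and its handling of strand and of reads mapping to several places are not given in the sources used here.

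Counts were filtered with filterByExpr, normalized by TMM and tested with the quasi-likelihood test of edgeR 4.0.16 (R 4.3.3) without covariates, after the procedure was tested on simulated data. The common biological coefficient of variation was 0.16. P-values were adjusted by Benjamini-Hochberg across all genes tested. N6AMT1 was compared with a two-sided exact permutation test (Python 3.11.15), and a count of 0 allows up to 3 counts, or 0.543 to 4.04 cpm depending on the library. That floor covers counting error only. The 95% intervals of fold changes come from the edgeR fit and include the spread between libraries. Alternatives were DESeq2 1.42.0, other scalings and filters, a replicate block, thinning, a GC and length correction (98% of tested genes had values) and leaving out each library. Positions, lengths and GC content are from GENCODE release 44, canonical transcripts. Exonic bases shared with other genes are from the same release, which is not the release 84 used for counting.

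The genes, the lists and the alternatives were chosen with earlier results of these data known. Named are the 9 genes, N6AMT1, and, of the other genes listed by role, those called and the 3 with the highest mean level per role. OMA1, MARCHF5, MIGA2 and ATAD3B were added to these after their values were seen. The planned ratios were MFN2 to MFN1, OPA1 to DNM1L and FIS1 to MFF, the last of which was not run. All other ratios within a library, among them MFN2 to OPA1 and MFF to DNM1L, were added to the plan. The deviations of same-numbered libraries correlated weakly (-0.000522, 0.0827 and 0.190), against -0.194 to 0.140 for libraries of unlike number. The numbers were not taken as pairs in the main fit, and the replicate block was run as an alternative.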

Additional observations from a re-analysis of the deposited data

How the results depend on the processing

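None of the 9 genes was called under any of the 16 alternatives. Their fold changes kept direction in 123 cases and turned in 21, all of genes other than OPA1 and MFF and none of them called. With the GC and length correction, alone and with the replicate block, log2 fold changes turned to 0.10 and 0.087 for MFN1, -0.0092 and -0.0093 for MFN2, 0.026 and 0.014 for DNM1L, -0.044 and -0.047 for CHCHD3, -0.11 and -0.12 for PHB2, and -0.051 and -0.047 for PGAM5. With the deep libraries thinned, MFN2 was at -0.16, IMMT at -0.011, PGAM5 at -0.37 and PTPMT1 at 0.47. GHITM was at -0.015, -0.0061 and -0.011, and RHOT1 at -0.018, -0.0083 and -0.0125, with DESeq2, RLE size factors and total counts. RHOT1 was at -0.00067 when scaled without mt-DNA-encoded genes and at -0.00016 with the replicate block. Leaving out 1 library gave -0.27 to 0.17 for MFN1, -0.0755 to 0.10 for MFN2, -0.00022 to 0.23 for MIEF1, -0.14 to 0.21 for IMMT, -0.031 to 0.052 for CHCHD3, -0.073 to 0.19 for PHB2, -0.054 to 0.13 for SENP5, -0.14 to 0.17 for PGAM5, -0.043 to 0.085 for GHITM, -0.21 to 0.12 for PTPMT1 and -0.0695 to 0.12 for RHOT1.

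The other genes listed by role had 1 call, which became 2 without a filter, with at least 10 counts in every library and with the GC and length correction, 3 with the replicate block alone or with that correction, 0 with the deep libraries thinned, and 0 to 3 with 1 library left out. DNM2 was called with the replicate block (0.48, edgeR adjusted p = 0.0418), and RHOT2 with the block and the correction (-0.50, adjusted p = 0.0360). Over all genes tested, 820 calls became 1195 with the replicate block, 1366 with the block and the correction, 102 with the deep libraries thinned, and 220 to 951 with 1 library left out, lowest without sgCtrl replicate 2. The other counts of calls were 632 to 1201. Mitophagy genes called, 5, became 3 with DESeq2, 2 with thinning and 2 to 6 with 1 library left out. They became 4 with at least 10 counts in every library, 6 without a filter, 6 with the replicate block, and 7 with the block and the correction. The causes were not tested. The control libraries, with at most 866894 counts each, limit the precision of every fold change. No test of the 9 genes gained a call with the replicate block, and sgN6AMT1 replicates 2 and 3 correlated best with the control of their own number (0.0827 and 0.190), but replicate 1 with sgCtrl replicate 2 (0.140).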

Other observations

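Removal of mitochondria by autophagy was listed separately, since fission and mitophagy act on the same organelles, as 18 receptors, adaptors and regulators of mitophagy, of which 16 passed the filter. The list was added after the other tables had been made, and the genes named from it are those called and FUNDC1, so they were named after their values were seen. Of the 16, 5 were called, all of them higher in sgN6AMT1, against 9.85% of all genes called and 5.09% called higher. SQSTM1, the autophagy receptor p62, rose from 102, 106 and 104 cpm in sgCtrl to 189, 190 and 272 cpm in sgN6AMT1, a log2 fold change of 1.07 (SE 0.18, edgeR adjusted p = 0.00126). BNIP3L, the mitophagy receptor NIX that clears mitochondria from maturing red cells, rose from 22.8, 25.4 and 17.7 cpm to 64.3, 53.5 and 59.4 cpm, a log2 fold change of 1.41 (SE 0.25, edgeR adjusted p = 0.00197). SQSTM1 and BNIP3L were called in each of the 16 alternatives run.

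TOMM7, a subunit of the import channel that holds PINK1 on damaged mitochondria, was at 155, 166 and 272 cpm in sgCtrl and 302, 396 and 435 cpm in sgN6AMT1, with a log2 fold change of 0.94 (edgeR adjusted p = 0.00685) that was called in 13 of 16 alternatives. The kinase PINK1 was at 13.4, 9.23 and 5.89 cpm in sgCtrl and 24.2, 22.1 and 22.6 cpm in sgN6AMT1 (log2 fold change 1.27, edgeR adjusted p = 0.0303). OPTN, the receptor optineurin, was at 12.1, 4.61 and 10.6 cpm in sgCtrl and 18.97, 27.6 and 18.8 cpm in sgN6AMT1 (log2 fold change 1.31, edgeR adjusted p = 0.0377). PINK1 and OPTN rest on few counts, and each was called in 9 of the 15 alternatives in which it was tested. DESeq2 did not call them (adjusted p = 0.0770 for PINK1 and 0.0926 for OPTN), and without sgCtrl replicate 2 the edgeR adjusted p was 0.122 for PINK1, 0.212 for OPTN and 0.0683 for TOMM7. FUNDC1, an outer membrane receptor for mitophagy under low oxygen, was at 26.5 ± 7.99 cpm in sgCtrl and 13.5 ± 4.79 cpm in sgN6AMT1 (SD, n = 3) and did not pass the test (log2 fold change -1.05, edgeR adjusted p = 0.0635), although it did in 5 of the 16 alternatives. The summed level of the 12 erythroid markers was 11800 to 18700 cpm in sgCtrl and 19000 to 34300 cpm in sgN6AMT1. A few abundant markers can set such a sum, and the direction of each marker is not given here. The highest value of a single marker was 7710 cpm in sgCtrl and 15300 cpm in sgN6AMT1, and the lowest was 11.5 and 7.3 cpm. The part of these markers in the differences of the mitophagy genes was not tested.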
